A study of Sus scrofa with 5 samples.

Results

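The transcripts described here were listed with expression at embryonic day 50 (E50) and at E70 of molar development and at exactly 0 at E60, the stage in between. They were chosen by their FPKM, a fragment count scaled to transcript length and to the number of mapped fragments: 1 or more at both E50 and E70, and 0 at E60. The rule kept 2466 of 45614 transcripts, which lay at 2058 of 18696 loci of the assembly. Because the rule used the values of all 3 stages, the gap at E60 is a description of how the members were picked and not a finding.

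The study followed the additional molars of the miniature pig, the permanent molars that have no deciduous predecessor, to ask how transcripts change while the molars start to form in sequence. Molar germs with the attached dental lamina were taken from the mandibles of wild-type miniature pig embryos on embryonic days 50, 60 and 70. RNA was pooled within a stage before sequencing, and the labels list 3 samples for E70 and 1 for each earlier stage. The deposited table gives 1 value per transcript and stage, so no value below has a replicate error and no difference between stages was tested.

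A tooth germ forms where a thickened epithelium, the dental lamina, meets the mesenchyme beneath it, and the germ passes through bud, cap and bell stages as the tissues signal to each other. A gene can give several transcripts that differ in their start, splicing or end, and short-read programs divide the fragments of a locus among the transcripts assembled there. A transcript can therefore be listed at 0 while another transcript of its locus, called a sister here, is not. In a dissected germ, fewer cells of a type and less RNA per cell cannot be told apart.

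The table names transcripts by assembly identifiers and by positions on scaffolds of the Wuzhishan miniature pig (WZSP) genome. It pairs no identifier with a gene symbol, so markers of dental epithelium, mesenchyme, blood, bone or muscle could not be looked up and the labelled tissue was not checked. The number of reads behind each single value is unknown, and an entry of 0 is given as listed at 0. Where 3 FPKM values of a transcript follow each other, they are those of E50, E60 and E70 in that order.

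The status that the program attached to each comparison differed among the members. It was OK in both comparisons with E60 for 2254 of them. For 129 members all comparisons were marked LOWDATA, the mark for loci too complex or too thinly covered to test, and for these the row that compared E60 with E70 listed E70 at 0 while the row that compared E50 with E70 gave it a value. The larger value was used, so these 129 are members through 1 row each. A further 82 were marked as not tested in at least 1 comparison, and 1 had a failed fit. The members with unequal entries were the more abundant, with medians of 2518 FPKM at E50 and 4010 at E70, against 120.5 and 219.5 for the members marked OK.

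Members spanned a wide range of levels. The median member was at 120.7 FPKM at E50 (quartiles 29.6 and 464.8) and at 226.9 at E70 (quartiles 42.1 and 1261). By comparison, the 5224 transcripts of 1 FPKM or more at E50 and E70 that were above 0 at E60 had medians of 15.9, 9.46 and 19.8 FPKM in the order of the stages. The members were thus mostly well above the minimum of the rule at E50 and E70. Among transcripts with a smaller value of 1 to 10 FPKM, 382 of 2959 were members (12.9%, Wilson 95% interval 11.7 to 14.2%). From 10 FPKM upwards the share was 2084 of 4731 (44.0%), and from 100 upwards it was 1209 of 2349 (51.5%). It was 325 of 638 (50.9%) from 1000 upwards and 47 of 115 (40.9%) from 10000 upwards. Intervals cover counting over transcripts, which are not independent, and say nothing of the spread between animals. The share was higher from 100 FPKM than from 10 but no higher beyond, while the minimum level itself comes from the rule. Of the 47 members of 10000 FPKM or more at both stages, 21 were among the 129 with unequal entries for E70.

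A few members carried most of the members' summed FPKM. Members held 16.3% of the summed FPKM of all transcripts at E50 and 16.6% at E70, and the 10 highest at each stage made up 58.4% and 59.5% of the members' sum. Across members the E50 and E70 levels were ranked alike, with a Spearman rho of 0.80 over 2466 transcripts, close to the 0.81 of the 5224 transcripts above 0 at E60. These transcripts share their libraries and, in part, their loci.

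The member with the largest smaller value was TCONS_00421815 (scaffold247:4572687-4626220), at 786299, 0 and 3010000 FPKM. Its locus has 1 other transcript, TCONS_00421302, which was listed at E60 alone, at 1.97 FPKM. An FPKM as high as 3010000 cannot arise from more than 332 bases of effective length if it is scaled to all mapped fragments, because no transcript can hold more fragments than were mapped. The locus spans 53534 bp, and neither the length of the transcript nor the exact scaling of the FPKM could be checked in the sources used here.

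TCONS_00977826 (scaffold66:2784912-2818552) stood at 249524 FPKM at E50, with 0 at E60 and 370108 at E70. TCONS_00023688 (scaffold1:1573254-1604717) stood at 196993, 0 and 411231 FPKM. TCONS_00218527 (scaffold158:1204774-1313515) had 86403 FPKM at E50, then 0 at E60 and 238121 at E70. At all 3 loci the locus total at E60 was far below those of E50 and E70, at 36.0, 83.4 and 19.0 FPKM, and the transcripts that made up this total had little or nothing at E50 and E70. At the last of them the other 4 transcripts were all listed at E60 alone, the highest being TCONS_00220093 at 10.3 FPKM.

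TCONS_00447520 (scaffold254:2533395-2563460) was at 75410.4, 0 and 198220 FPKM, where its locus total at E60 was 61.9. TCONS_00058013 (scaffold106:2982820-3366763) was at 68864 FPKM at E50, with 0 at E60 and 1980000 at E70. Its difference E70 minus E50, 4.85 on the log2(FPKM + 1) scale, was the largest of the 10. Its locus holds a further member, TCONS_00055781, at 1133 FPKM at E50, then 0 at E60 and 5915 at E70, so both were higher at E70 than at E50.

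The remaining 4 of the 10 were among the members with unequal E70 entries. TCONS_00067684 (scaffold11:9488932-9635057) was listed at 956584, 0 and 332118 FPKM. TCONS_00813835 (scaffold471:192749-206027) was listed at 206734, 0 and 270387 FPKM. TCONS_00997868 (scaffold671:2053246-2117926) was listed at 176882, 0 and 289662 FPKM. Their E70 values stand in the comparison with E50 and are 0 in the comparison with E60. The same holds for TCONS_00492285 (scaffold279:4583244-4586378), listed at 95356 FPKM at E50, with 0 at E60 and 121008 at E70, whose sister TCONS_00491372 was at 15603, 320.9 and 13389 FPKM.

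With members of unequal entries or without status OK set aside, 4 others entered the 10 highest, a list made after the values were seen. TCONS_00840850 (scaffold494:709542-713070) was at 65689 FPKM at E50, then 0 at E60 and 81875 at E70. Its sister TCONS_00840640 was lower but present throughout, at 4645, 2281 and 8287 FPKM. TCONS_00974362 (scaffold652:20912-26383) was at 393985, 0 and 41123 FPKM, and its only sister was listed at 0 at E60 as well. TCONS_01006350 (scaffold685:138433-271420) was at 36487 FPKM at E50, with 0 at E60 and 59791 at E70. TCONS_00342196 (scaffold21:520645-532072) was at 32501 FPKM at E50, then 0 at E60 and 64926 at E70. The last of these was the minor form of its locus, since TCONS_00342040 there was at 518969, 3974 and 356927 FPKM. That sister was itself marked LOWDATA in the comparison of E60 with E70.

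The rule used the level at E50 and at E70 but not which was higher. On the log2(FPKM + 1) scale the median difference E70 minus E50 was 0.75 over the members (quartiles -0.19 and 1.96), against 0.10 over the 5224 transcripts above 0 at E60, but its sign turned under quantile normalization. At E70, 1080 members (43.8%, Wilson 95% interval 41.8 to 45.8%) were 2-fold or more higher than at E50. Over all 7690 transcripts of 1 FPKM or more at both stages 28.6% were, and over all 45614 transcripts 11.8% were. In the other direction, 316 members (12.8%, interval 11.6 to 14.2%) were 2-fold or more lower at E70, against 15% of the 7690 and 10.7% of the 45614. The higher side was therefore larger among members than in the background, and the lower side was near it. The 7690 include the members, and of the 5224 others 21.4% were higher and 16.1% lower. Members and others were not matched for level.

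This direction depended on the scaling of the stages. Over 11301 transcripts above 0 at every stage, the E50 median was 1.86 FPKM, the E60 median 6.82 and the E70 median 1.46, a log2 ratio of -0.35 for E70 against E50. After scaling the stages to a common median, the members' median difference became 1.10, with 52.9% higher and 10.4% lower. Under quantile normalization it turned to -0.10, with 23.4% higher and 21.5% lower. The members still lay above the 5224 transcripts present at E60, whose medians were 0.43 with median scaling and -0.34 with quantile normalization. The order of the members and the other transcripts was thus the same under the 3 scalings, while the sign of the members' own difference was not.

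As deposited, the difference varied with level and with the kind of locus. Members with a smaller value of 1 to 10 FPKM had a median difference of -0.07, and those of 10 to 100 FPKM one of 0.60. At 100 to 1000 FPKM it was 1.04, and at 1000 or more it was 0.998. By the kind of locus, it had a median of -0.77 for the 165 members at loci with 1 transcript and of 0.82 for the 2301 at loci with several. Of the former 10.9% were 2-fold or more higher at E70 and 40.0% lower, and of the latter 46.2% and 10.9%. Transcripts above 0 at E60 with 1 FPKM or more at E50 and E70 leaned the same way by kind of locus, but less, with medians of -0.12 at 520 loci with 1 transcript and 0.12 over 4704 transcripts at loci with several. Of the 520, 15.8% were higher and 21.0% lower, and of the 4704, 22.0% and 15.6%. The members at loci with 1 transcript were also the low ones, 67.9% of them being under 10 FPKM in their smaller value against 11.7% of the others. Ranges of level were therefore also split by kind of locus, after the values were seen. At 1 to 10 FPKM the medians were -0.87 for 112 members at loci with 1 transcript and 0.74 for 270 at loci with several, and at 10 to 100 FPKM they were -0.65 for 47 and 0.62 for 828. The kinds thus differed in both ranges, and the -0.07 of the lowest range joins 2 unlike groups. Members at loci with several transcripts had medians of 1.03 at 100 to 1000 FPKM and 0.996 from 1000 upwards. Only 6 members of 100 FPKM or more were at loci with 1 transcript, 3 in each of these ranges. Their medians were higher, at 1.89 and 1.31, so the lower values at loci with 1 transcript were not seen there. What lies behind these differences was not tested.

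The largest difference E70 minus E50 was that of TCONS_00905640 (scaffold573:58916-72031), from 5.89 FPKM at E50 through 0 at E60 to 7494 at E70. TCONS_00052789 (scaffold105:4597556-4604669) went from 54.9 FPKM through 0 to 40735, and TCONS_00607670 (scaffold332:5302379-5337606) from 2.05 through 0 to 2126. On the log2(FPKM + 1) scale these differences were 10.09, 9.51 and 9.45. Members are at 0 at E60 by the rule, so at each of the 3 loci any E60 signal lay with sisters. The highest sister of each is given here. TCONS_00905627 was at 24.0 FPKM at E50, with 165.1 at E60 and 0 at E70. TCONS_00050496 was at 0, 144.5 and 0.515 FPKM, and TCONS_00605082 was at 0, 124.9 and 0 FPKM.

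The most negative difference was that of TCONS_00069168 (scaffold11:9652177-9692120), from 240331 FPKM at E50 through 0 at E60 to 170.9 at E70. TCONS_00115040 (scaffold1219:84-3332) went from 482691 FPKM through 0 to 481.5. Both are among the members with unequal E70 entries. TCONS_00298102 (scaffold190:7367367-7384661), with status OK, went from 20818 FPKM through 0 to 27.1. The differences were -10.45, -9.97 and -9.53 on the log2(FPKM + 1) scale, each from a high E50 value. At the last locus the sister TCONS_00298100 followed the same course, at 1930 FPKM at E50, then 2.25 at E60 and 13.0 at E70.

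The sister transcripts were not part of the rule. Of the 2466 members, 2292 had a sister above 0 at E60 (92.9%, Wilson 95% interval 91.9 to 93.9%). Among the 2301 members at loci with several transcripts this is 99.6%, against 97.5% of 4704 transcripts that were present at E60 and 97.4% of all 37446 transcripts at such loci. An E60 signal elsewhere in the locus was thus the usual state of any transcript in the table, members or not. The summed FPKM of the sisters at E60 had a median of 38.3 (quartiles 17.0 and 91.8), and in 2246 cases it was 1 or more. A member listed at 0 at E60 was therefore seldom at a locus listed at 0.

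Members mostly were the main transcripts of their loci at the outer stages, as were other transcripts of 1 FPKM or more at both. At 1893 member loci with several transcripts, members held a median of 98.1% of the locus FPKM at E50 (quartiles 80.5 and 99.9%) and 98.9% at E70 (quartiles 81.2 and 99.96%). The highest transcript was a member at 1624 of these loci at E50 (85.8%) and at 1614 at E70 (85.3%). It was the same member at both stages at 1453 loci (76.8%). At 2707 loci with several transcripts and no member, the transcripts of 1 FPKM or more at E50 and E70 held medians of 99.8 and 99.9%, and 1 of them was the highest at 92.5% of loci at E50 and 90.2% at E70. A large share of the locus was therefore not particular to members, although the others had lower levels and were not matched to them. At the other end a member held as little as 0.00249% of its locus at E50.

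The 7117 sisters showed every pattern over the stages. Of them 2367 (33.3%) were above 0 at E60 alone and 2263 (31.8%) at all stages, against 35.1% and 24.8% of all transcripts. Another 960 were above 0 at E50 and E60, and 941 at E60 and E70. At the 1886 member loci with several transcripts and an E60 signal, the highest transcript at E60 was above 0 at all stages in 660 (35.0%) and at E60 alone in 652 (34.6%). In 291 (15.4%) it was above 0 at E60 and E70, and in 283 (15.0%) at E50 and E60. The highest E60 value of a member locus thus came about as often from a transcript present at all stages as from one listed at E60 alone.

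Sisters at E60 alone were about as frequent at member loci as elsewhere. They were found at 1262 of the 1893 member loci with several transcripts (66.7%, Wilson 95% interval 64.5 to 68.8%), at 63.0% of 2707 other loci with a transcript of 1 FPKM or more at E50 and E70, and at 70.4% of all 10528 loci with several transcripts. Among loci of the same number of transcripts the share was lower at member loci. With 2 transcripts it was 18.1% against 29.0% at the other loci, with 3 it was 51.9% against 59.5%, and with 4 it was 64.1% against 75.2%. With 8 to 23 transcripts it was 90.9% against 95.3%. By definition, neither a member nor the transcript that places a locus in the comparison group can be listed at E60 alone. What lies behind the lower shares was not tested. Where present, sisters at E60 alone held a median of 49.6% of the locus FPKM at E60 (quartiles 21.5 and 82.4%).

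Loci with 2 transcripts are the simplest case. There were 193 of them, and at 191 the second transcript was not a member. It was above 0 at all stages at 94 loci, at E60 alone at 35, at E50 and E60 at 32 and at E60 and E70 at 25. At these 191 loci the members had medians of 142.7 FPKM at E50 and 245.4 at E70. The sisters had medians of 0.375, 15.0 and 0.185 FPKM over the stages. The E60 signal of the sisters was thus well below the level of the members at the outer stages.

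Taken over whole loci, the totals were lower at E60. The median locus total of the 2058 member loci was 197.1, 31.3 and 479.0 FPKM at the successive stages, where all 18696 loci had medians of 0.521, 9.57 and 0.209 FPKM. On the log2(total + 1) scale the median difference E60 minus E50 was -2.89 (quartiles -4.71 and -1.15) and E60 minus E70 was -3.77 (quartiles -5.77 and -1.81). Over all loci both medians were 0.89. At the 1886 member loci above 0 at E60 with several transcripts, a restriction made after the values were seen, they were -2.76 and -3.90. Since a member adds to the totals of E50 and E70 and nothing to that of E60, a lower total at E60 is in part fixed by the choice of members. The E60 totals themselves were not low for the table, because their median of 31.3 FPKM was above the 9.57 of all loci. The loci were not matched for their number of transcripts, of which member loci held more.

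At 1515 member loci (73.6%, Wilson 95% interval 71.7 to 75.5%) the total was 2-fold or more lower at E60 than at both E50 and E70, against 12.7% of all loci. At 60 (2.92%) it was 2-fold or more higher at E60 than at both, against 43.7% of all loci. The remaining 483 did neither. The total at E60 reached or passed those of both other stages at 128 member loci (6.22%). Both backgrounds were measured on the contrast that chose the members, so nothing is read from the gap. With median scaling the medians over member loci were -4.52 against E50 and -5.76 against E70, and with quantile normalization they were -3.80 and -3.68. All loci then had medians of 0.07 and 0.08, and of -0.43 and -0.42. Since the rule sets part of this difference, its presence under the 3 scalings is not a finding on these loci.

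The members whose sisters had the most FPKM at E60 lay, by that choice, at loci that were abundant at E60. TCONS_00592895 (scaffold325:2682036-2698797) was at 3847, 0 and 1333 FPKM, within a locus of 17 transcripts whose totals were 796660, 182180 and 170425 FPKM. The main transcript of this locus at E50, TCONS_00590959, was at 442438 FPKM there, 127530 at E60 and 0 at E70. Like most sisters there, it was marked LOWDATA in the comparison of E60 with E70. TCONS_00231871 (scaffold161:1919525-1951705) was at 13142 FPKM at E50, with 0 at E60 and 11723 at E70, beside TCONS_00232886 at 72367, 8653 and 31855 FPKM. The totals of that locus were 183235, 11812 and 99881 FPKM, and TCONS_00232886 was marked LOWDATA in the same comparison. At either locus the E60 total was below that of E50, and the member, at 0 by the rule, added nothing to it.

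TCONS_00951214 (scaffold619:2438995-2448812) was at 11.7 FPKM at E50, then 0 at E60 and 2.36 at E70. It was the only transcript of its locus above 0 at E50, while TCONS_00952494 was at 0, 22582 and 30152 FPKM and TCONS_00951634 at 0, 3617 and 44031 FPKM. The locus total thus increased over the stages while the member was lower at E70 than at E50. At scaffold427:1013321-1334228 a pair of members differed in direction. TCONS_00746842 was at 739.9, 0 and 7.33 FPKM. TCONS_00750437 was at 4.23, 0 and 299.1 FPKM. The main transcript of that locus, TCONS_00748457, was highest at E60, at 2753, 13561 and 1874 FPKM, so the total did not follow either member.

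At 172 member loci the total at E60 was 0. They include all 165 loci with 1 transcript and 7 with several. These 172 are also all of the 5778 loci with totals of 1 FPKM or more at E50 and E70 that were listed at 0 at E60 (2.98%). A total of 0 at E60 was listed for 3069 loci altogether. Counted by locus and not by transcript, the gap at E60 was therefore uncommon.

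Members at loci with 1 transcript were mostly at low levels and at short loci. Their medians were 14.8 FPKM at E50 and 6.86 at E70, against 138.7 and 288.7 for members at loci with several transcripts. The loci spanned a median of 1382 bp, and 62 of the 165 spanned less than 1000 bp. All 8168 loci with 1 transcript spanned a median of 7568 bp. Of the 685 loci with 1 transcript of 1 FPKM or more at E50 and E70, the 165 members make up 24.1% (Wilson 95% interval 21.0 to 27.4%), against 32.8% (31.8 to 34.0%) of 7005 such transcripts at loci with several. The other 520 had medians of 6.38, 14.3 and 5.26 FPKM over the stages and a median span of 4636 bp.

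The highest member at a locus with 1 transcript was TCONS_00227565 (scaffold161:3659935-3665367), at 21081 FPKM at E50, with 0 at E60 and 52410 at E70. TCONS_00892073 (scaffold552:1864797-1865372) was at 8927 FPKM at E50, then 0 at E60 and 24687 at E70. TCONS_00536496 (scaffold298:8624395-8624842) was at 2755, 0 and 1865 FPKM. The last pair of loci span 576 and 448 bp, so these transcripts are short whatever their exons. TCONS_00691658 (scaffold400:5182864-5202034) was at 319.7, 0 and 1189 FPKM. TCONS_00306695 (scaffold192:1338082-1349306) was at 133.8, 0 and 2154 FPKM. With no sister assembled, the whole locus was listed at 0 at E60 in each of the 5, and 6 of the 165 were at 100 FPKM or more at both E50 and E70.

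Member loci held more transcripts and were longer than others. They had a median of 4 transcripts and a mean of 4.66, against a median of 2 and a mean of 2.44 over all loci, and spanned a median of 39425 bp against 18303 bp. A member was found at 2.02% of loci with 1 transcript and at 5.32% with 2. The share was 13.3% with 3 transcripts, 22.2% with 4 and 31.5% with 5. It was 41.5% with 6 or 7 and 59.1% with 8 to 23. A locus with more transcripts has more chances to hold a member, which by itself can raise the share.

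Most member loci, 1724, held 1 member, while 278 held 2, 40 held 3, 14 held 4 and 2 held 5. Members of the same locus did not always share a direction. At the 278 loci with 2 members both were higher at E70 than at E50 in 169, both were lower in 29 and they went in opposite directions in 80 (60.8, 10.4 and 28.8%). At 746 loci with 2 transcripts of such levels above 0 at E60 the shares were 35.5, 18.8 and 45.7%. These directions are as deposited and were not counted under the other scalings. The sign of the members' median difference turned under quantile normalization. At 21 of these 80 loci 1 member was 2-fold or more higher and the other 2-fold or more lower.

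Of the loci with 5 members, that at scaffold73:6767836-6983608 has 15 transcripts. TCONS_01048180 was at 135.5 FPKM at E50, with 0 at E60 and 5244 at E70, and TCONS_01044875 at 501.7, 0 and 1955 FPKM. TCONS_01044849 was at 434.6, 0 and 1907 FPKM. All 5 were higher at E70. TCONS_01048168 was at 402.4, 0 and 1223 FPKM, and TCONS_01047059 at 17.3, 0 and 91.7 FPKM. At E60 the locus total was 44.0 FPKM, of which TCONS_01045995 gave 17.5 FPKM with 1.70 at E50 and 0.729 at E70.

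At scaffold296:202283-272849, with 10 transcripts, the members differed in both directions between E50 and E70. TCONS_00532150 was at 425.2 FPKM at E50, then 0 at E60 and 462.1 at E70. TCONS_00531272 was at 74.5, 0 and 4.86 FPKM, and was the only one of the 5 that was lower at E70. TCONS_00533756 was at 59.1, 0 and 84.3 FPKM. TCONS_00532138 was at 40.1, 0 and 59.4 FPKM, and TCONS_00532152 at 30.5, 0 and 94.8 FPKM. The sisters together had 94.1 FPKM at E60, against locus totals of 634.9 at E50 and 978.4 at E70.

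The locus at scaffold1197:247289-344715 has 10 transcripts and 4 members, and is 1 of the 14 loci with that many. TCONS_00103372 was at 74.0, 0 and 127.8 FPKM, and TCONS_00103487 at 60.9, 0 and 69.0 FPKM. TCONS_00103359 was at 60.4, 0 and 64.5 FPKM, and TCONS_00103483 at 9.01, 0 and 69.4 FPKM. The locus total as deposited was 204.3 FPKM at E50, then 260.0 at E60 and 332.9 at E70. At E60 it came from other transcripts, above all TCONS_00103447, which was at 0, 183.4 and 0 FPKM. Members are at 0 at E60 by the rule, so it is fixed by the choice that other transcripts made up the total there.

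Gene names were available for 12 protein-coding loci that the study set beside long intergenic noncoding RNAs (lincRNAs), and members lay at 2 of these. RPN1 encodes ribophorin I, a subunit of the oligosaccharyltransferase that attaches sugar chains to proteins entering the endoplasmic reticulum. At its locus (scaffold252:1362692-1386210) the member TCONS_00440576 was at 336.6 FPKM at E50, with 0 at E60 and 1399 at E70. TCONS_00440660, the transcript that carries the name in the study's list, ran the other way, at 0.694 FPKM at E50, then 34.7 at E60 and 1.08 at E70. TCONS_00441003 followed the member, at 45.8, 0.544 and 108.1 FPKM. Summed over all its transcripts, with and without the name, the locus was at 383.1, 35.2 and 1508 FPKM.

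AP2M1 encodes the mu subunit of AP-2, the adaptor that links cargo to clathrin at the plasma membrane. At its locus (scaffold331:1657368-1666300) the member TCONS_00597898 was at 803.4 FPKM at E50, with 0 at E60 and 4795 at E70. It is among the members with unequal E70 entries. The transcript named in the list, TCONS_00596741, was at 20.8 FPKM at E50, then 204.8 at E60 and 15.9 at E70. TCONS_00596742 was at 0, 300.6 and 0 FPKM, and TCONS_00595608 at 1193, 400.1 and 77.3 FPKM. The locus total was 2017, 937.8 and 4947 FPKM. Most of its E70 value is the 4795 FPKM of the member, which the row comparing E60 with E70 lists at 0. TCONS_00595608 was marked LOWDATA in that comparison as well, so the course of the total is uncertain. The study paired genes and lincRNAs for opposite courses, and members are at 0 at E60 by the rule. The member's side of the contrast with the named transcript is therefore fixed by the choice. What lies behind the contrast at both genes was not tested.

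None of the listed lincRNAs was itself a member, against 5.41% of all transcripts. No listed lincRNA was at 0 at E60, so none could meet the rule and nothing is read from this. All 450 were found in the table, at 424 loci, and the lowest of them at E60 was at 0.0604 FPKM. Members were sisters of listed lincRNAs in 184 cases, at 136 of the 424 loci (32.1%, Wilson 95% interval 27.8 to 36.7%). Members were found at 34.6% of the 393 lincRNA loci with several transcripts, against 18.0% of all 10528. The lincRNA loci held a median of 5 transcripts and the others fewer, the median over all loci with several being 3. At loci of the same number of transcripts no such gap was seen, but a listed lincRNA cannot itself be a member. Matching by number therefore counts against lincRNA loci, and whether a gap remains without this was not tested. Members lay at 18.5% of lincRNA loci with 4 transcripts against 22.2% of all loci with 4, at 30.9% against 31.5% with 5, and at 40.9% against 41.5% with 6 or 7. With 8 to 23 transcripts it was 62.9% against 59.1%, with 3 it was 8.70% against 13.3%, and with 2 it was 0% of 24 loci against 5.32%. The lincRNAs were listed from these same libraries, so their levels are not independent of those of the members.

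The lincRNAs beside members were low at E60, as was most of the list. At the 136 loci, 148 listed lincRNAs had medians of 121.3, 1.53 and 105.1 FPKM over the stages. All 450 had medians of 67.1, 3.14 and 64.0 FPKM. Lower values at E60 than at both other stages were found in 120 of the 148 and in 324 of the 450. The list was made of lincRNAs that the authors called different between stages, so a low E60 value in it is partly one of selection and is not read as a trait of member loci.

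Members lay at 4 of the 12 lincRNA loci that the study set beside protein-coding genes. That share was near the 32.1% of all 424 listed lincRNA loci. At the locus beside COG4, which encodes a subunit of a Golgi tethering complex (scaffold405:10672754-10726270), the member TCONS_00705479 was at 395.2 FPKM at E50, with 0 at E60 and 533.2 at E70. The listed lincRNA there, TCONS_00704136, was at 43.3, 1.52 and 76.0 FPKM. TCONS_00705835 held the E60 signal, at 0.562, 77.3 and 2.38 FPKM. Both the member and the lincRNA come from choices that used their values at E60.

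At the locus beside GGPS1, which encodes geranylgeranyl diphosphate synthase (scaffold37:2090903-2249703), the member TCONS_00656339 was at 269.5 FPKM at E50, then 0 at E60 and 55.7 at E70. The lincRNA TCONS_00656338 was at 395.6, 0.721 and 536.8 FPKM. The main transcript, TCONS_00656330, was at 1191, 138.3 and 4143 FPKM. Of these 3 only the member was lower at E70 than at E50.

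At the locus beside RBM5, which encodes an RNA-binding splicing regulator (scaffold799:596665-629121), the member TCONS_01082649 was at 264.3, 0 and 1042 FPKM, with status LOWDATA. The lincRNA TCONS_01082456 was at 22.3, 0.568 and 37.3 FPKM, and TCONS_01082648, LOWDATA as well, was at 447.3, 356.4 and 987.3 FPKM. The locus total was nearly level between E50 and E60, at 735.6 and 696.4 FPKM, before 7646 at E70. At the locus beside TLCD2 (scaffold211:6175886-6209823) the member TCONS_00348599 was at 35.6 FPKM at E50, with 0 at E60 and 50.7 at E70. The lincRNA TCONS_00348582 was at 89.3, 0.975 and 105.3 FPKM. There the total was 1227 FPKM at E50 but 50.5 at E60, and stood at 565.9 at E70.

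Members were spread over the assembly. They lay on 559 of 1290 scaffolds, with 41 on scaffold332, 30 on scaffold283 and 24 on scaffold619. On scaffold332 they were 5.63% of 728 transcripts, near the 5.41% of the whole table, and on scaffold619 they were 8.48% of 283. Over the 140 scaffolds with at least 100 transcripts the share ran from 1.72 to 11.04% with a median of 5.63%. Of the member loci, 415 (20.2%, Wilson 95% interval 18.5 to 22.0%) had another member locus next to them on the scaffold, against 19.8% of all loci. Within 100 kb the shares were 36.1% and 32.3%. Among loci with several transcripts, 21.2% had a member locus next to them. A member locus was thus about as frequent next to another as next to any locus. Within 100 kb of another it was somewhat more frequent, but loci were not matched there for their number of transcripts.

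The same pattern with another stage at 0 was less frequent and, as deposited, much lower in level. The levels were read at different stages, which were not scaled to each other for this. Transcripts of 1 FPKM or more at E50 and E60 and listed at 0 at E70 numbered 1792, with medians of 2.52 FPKM at E50 and 9.08 at E60. Those of 1 or more at E60 and E70 and listed at 0 at E50 numbered 1856, with medians of 16.2 FPKM at E60 and 9.76 at E70. Of these 253 had unequal entries, and 1603 were left with the smaller value. The Spearman rho between the listed stages was 0.37 and 0.50 over the transcripts of these classes, against 0.80 for the members. Over transcripts above 0 at every stage with 1 FPKM or more at the same 2 stages it was 0.25 for E50 with E60 (6103 transcripts) and 0.29 for E60 with E70 (5465), so E60 was ranked less like the other stages in general. With a minimum of 10 FPKM 2084 members were kept, but 318 and 715 of the other classes. The mirror image, 1 FPKM or more at E60 alone, was met by 12949 transcripts with a median of 6.12 FPKM, of which 2076 lay at member loci.

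Few transcripts lay near the FPKM minimum. Just inside it, TCONS_00143839 (scaffold13:369093-370377) was at 3.50 FPKM at E50, then 0 at E60 and 1.001 at E70. TCONS_00821316 (scaffold4780:2737-4004) was at 1.03, 0 and 3.30 FPKM. Both are at loci with 1 transcript and were marked as not tested in 1 comparison. Just outside, TCONS_00937738 (scaffold607:312616-328407) was at 0.988, 0 and 1.19 FPKM, and TCONS_00675045 (scaffold39:4179978-4180690) at 41.1, 0 and 0.984 FPKM. Of the members 102 were under 2 FPKM in their smaller value, and 125 transcripts listed at 0 at E60 lay between 0.5 and 1.

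On the E60 side few values lay just above 0. TCONS_00668716 (scaffold384:1367239-1412760) was at 104.1 FPKM at E50, with 4.85e-06 at E60 and 128.9 at E70. TCONS_01052812 (scaffold745:497967-524341) was at 30.3, 3.86e-05 and 25.3 FPKM. Neither is a member, although their E60 values differ from 0 by less than any other transcript of 1 FPKM or more at E50 and E70. Between 0 and 0.1 FPKM at E60 there were 61 such transcripts, against 2466 members.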

How the data were processed

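Pooled total RNA of molar germs at each stage was sequenced by the authors on an Illumina HiSeq from normalised cDNA libraries. The authors used TopHat to map reads onto the WZSP assembly, built transcripts with Cufflinks (1.0.3 in the submitters' processing notes, a later version in the paper) and deposited Cuffdiff FPKM values. By its definition FPKM is scaled to transcript length and mapped fragments, but the exact scaling is uncertain, as some values are very high. The paper names quantile normalization ahead of its statistics, but the stages differ in their medians as deposited, so the values were used so and that normalization was an alternative. The columns of the authors' own comparisons, which hold log2 fold changes, test statistics, p-values and q-values, were not used. Each stage's FPKM was taken from the rows that name it, the larger where rows differed. Locus totals are sums over transcripts with the same locus, and positions are 1-based. Differences are on log2(FPKM + 1). Named members were the 10 with the largest smaller value of E50 and E70, 5 such at loci with 1 transcript, 5 with the largest sister sum at E60, the 3 loci with most members (ties by lowest transcript identifier), the 3 largest and 3 most negative differences E70 minus E50, those nearest the thresholds, and those at named lincRNA pairs. Members and lists were chosen with earlier results of these data known. Calculations used Python 3.11.15, pandas 2.3.3, numpy 2.4.6 and scipy 1.17.1, and were checked on simulated tables. Alternatives covered minimum, status, unequal entries, pseudocount and scaling. Gene lists fixed for tooth tissues were not applied, because no symbols could be joined. The study's gene table was at hand only in part, and the few symbols there had been turned into dates.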

Additional observations from a re-analysis of the deposited data

How the results depend on the processing

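With 1 value per stage no replicate could be left out, and no test was made. No paired analysis was possible because each stage has 1 value. The number of reads behind each single value is unknown. The number of members was within 1.5 times under 9 of its 10 alternatives, and 172 loci met the rule when FPKM was summed over the locus first. The share with a sister at E60 was 97.2% at a minimum of 10 FPKM, 90.9% for sisters of 1 FPKM or more, and 93.9% for members with status OK. The median locus total difference E60 minus E50 was -3.16 with a pseudocount of 0.1, -4.52 with median scaling, -3.80 with quantile normalization and -3.14 at a minimum of 10. E60 minus E70 was -4.17, -5.76 and -4.22 with the pseudocount, median scaling and that minimum. For E70 minus E50 the median was 1.10 with median scaling, -0.10 with quantile normalization and 1.02 at a minimum of 100 FPKM, which was chosen after seeing the data, as was status OK for the differences. The share 2-fold or more higher was 52.9%, 23.4% and 50.4% in these settings and 24.2% for 4-fold. The share lower was 10.4%, 21.5% and 6.12%, with 6.16% for 4-fold, 9.40% at a minimum of 10 and 11.4% with status OK. At a minimum of 10 the classes listed at 0 at E70, at 0 at E50 and at E60 alone numbered 318, 715 and 4734. Member loci within 100 kb of another made up 36.1%. The causes of these shifts were not tested.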

Other observations

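Of the stretches of neighbouring member loci, 4 held at least 4 in a row, of which 1 held 5. That one and the first by scaffold name of the others are described here, having been picked after their values were seen. On scaffold1277, 5 loci in a row between 1281476 and 1440556 held 6 members. TCONS_00139031 was at 1935, 0 and 660.5 FPKM, TCONS_00139795 at 367.5, 0 and 1313 FPKM, and TCONS_00139786 at 144.2, 0 and 141.2 FPKM. The locus of TCONS_00139031 was the exception among the 5 in its total, which was highest at E60, at 3969 FPKM at E50, with 11429 at E60 and 7593 at E70. TCONS_00139020 was at 119.1, 0 and 226.5 FPKM, and TCONS_00139764 at 103.7, 0 and 177.8 FPKM.

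On scaffold121, 4 loci in a row between 161602 and 533004 held 6 members. TCONS_00109989 was at 342.9 FPKM at E50, then 0 at E60 and 445.8 at E70, TCONS_00112075 at 76.2, 0 and 931.3 FPKM, and TCONS_00112640 at 48.6, 0 and 1024 FPKM. TCONS_00110030 was at 46.5, 0 and 39.3 FPKM. At its locus the total went from 4828 FPKM at E50 to 11.8 at E60 and 42.3 at E70, so it did not return to its E50 level as the member nearly did.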
